A study of Saccharomyces cerevisiae with 13 samples.

Results

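The strain described here lacks tR(UCU)M2, a nuclear arginine tRNA gene of budding yeast that belongs to a family with several copies. Its members are the 2 arrays that the labels give to this deletion, of 13 arrays in the series, and they were set against the 3 wild-type arrays over the 5446 protein-coding genes with a probe set of their own. The tR(UCU)M2 deletion had the tRNA gene replaced by a hygromycin B resistance cassette. The wild-type strain carried the same cassette upstream of the leucine tRNA gene tL(CAA)L3, so both carried the marker, at different places. The labels give all strains the haploid background Y5565, whose genotype in the methods is MATα and ura3Δ0 leu2Δ0 lyp1Δ with can1Δ::MFA1pr-HIS3 (HIS3 behind an a-specific promoter in place of CAN1) and mfα1Δ::MFα1pr-LEU2 (LEU2 behind an alpha-specific promoter in place of the alpha pheromone gene MF(ALPHA)1), and the tR(CCU)J arrays departed from it in that last gene. Cells grew in rich medium at 30°C and were collected in mid log phase. A pair of other strains served as further comparisons, each with 2 arrays, namely the deletion of tH(GUG)G1, a histidine tRNA gene from another family with several copies, and the deletion of tR(CCU)J, the only gene of its arginine tRNA family.

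A tRNA carries one amino acid to the ribosome and reads the codons that pair with its anticodon. The anticodon UCU reads AGA, the arginine codon that budding yeast uses most in strongly expressed genes. RNA polymerase III transcribes tRNA genes from promoter elements inside the gene, and synthetases then load the tRNA with its amino acid. When uncharged tRNA accumulates, the kinase Gcn2 raises translation of the transcription factor Gcn4, which switches on amino acid biosynthesis. The comparison with wild type asks what the transcriptome does when a single copy of such a family is lost while its other copies stay in place.

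The copies of a tRNA family can have the same sequence, so the deletion of one copy rests on the bases that flank it. The arms of the deletion primers are shown because they direct the cassette to tR(UCU)M2 rather than to its sister copies. The construct of each strain also held a unique barcode. Each is given as listed in the study's primer table, in lower case throughout because no single part of an arm was singled out, and those of tR(UCU)E, a sister copy on chromosome V, stand beside those of tR(UCU)M2 on chromosome XIII.
tR(UCU)M2 up arm: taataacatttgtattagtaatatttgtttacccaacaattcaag
tR(UCU)M2 down arm: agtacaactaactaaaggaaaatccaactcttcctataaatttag
tR(UCU)E up arm: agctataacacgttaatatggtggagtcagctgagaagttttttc
tR(UCU)E down arm: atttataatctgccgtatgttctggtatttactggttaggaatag
Each arm was 45 bases long. The tR(UCU)M2 arms were 77.8% (up) and 71.1% (down) A or T. Placed base against base, the up arms of tR(UCU)E, tR(UCU)G1, tR(UCU)K and tR(UCU)M1 held the tR(UCU)M2 base at 10, 10, 18 and 16 of 45 positions. The down arms of the same 4 copies held it at 12, 14, 19 and 10 of 45 positions. The flanks of the deleted copy thus differed from those of the other copies at most positions. No probe set of the array was assigned to a tRNA, so loss of tR(UCU)M2 could not be checked on these arrays.

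The values are array signals, given here as log2 of the deposited signal, and every difference is the mean of the tR(UCU)M2 deletion arrays minus the mean of the wild-type arrays on that scale. The median gene signal was 502 to 511 on the tR(UCU)M2 deletion arrays and 512 to 536 on the wild-type arrays, and between 96.5% and 98.3% of genes lay above the background set by Schizosaccharomyces pombe probe sets on each of the 13 arrays. HIS3 and LEU2, which the reporter constructs carry, had log2 signals of 12.16 and 11.83 (HIS3) and 13.37 and 13.18 (LEU2) in the tR(UCU)M2 deletion. MFA1, whose promoter drives HIS3 in its construct, had 6.58 and 5.82 in the deletion, against 5.22, 6.37 and 5.85 in wild type, and the source of the HIS3 signal was not tested. URA3, CAN1 and LYP1, which the genotype deletes, had log2 signals between -0.12 and 3.99 over the 5 arrays. Of 6 genes that mark mating type alpha, 5 were above background on all 5 arrays, and their summed signal was 24076 and 15361 in the tR(UCU)M2 deletion and 15528, 21786 and 12500 in wild type. The 7 genes that mark mating type a summed to 451 and 324 in the tR(UCU)M2 deletion and to 318, 370 and 304 in wild type. The summed markers of haploid cells spanned 7760 to 8266 in the deletion and 7344 to 7916 in wild type, those of meiosis 906 to 1153 and 948 to 1165, and those of stationary phase 5708 to 6748 and 5994 to 7373. Above background on all 5 arrays were also 6 of 7 markers of mating type a and 9 of 9 of haploid cells. The same held for 13 of 16 markers of meiosis and 15 of 16 of stationary phase, so this count does not tell cell types apart. RNA from a whole culture cannot tell fewer cells that express a gene from less RNA in each cell.

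The arrays of one strain did not lie closer to each other than to the arrays of the other strain. Over the 3992 brighter genes, those with a mean log2 signal over 8, the SD of the log2 difference between the tR(UCU)M2 deletion arrays 1 and 2 was 0.33. Deletion array 1 against wild-type arrays 1, 2 and 3 gave an SD of 0.37, 0.18 and 0.39. Deletion array 2 against the same wild-type arrays gave 0.29, 0.38 and 0.24. The wild-type arrays differed from each other by SDs of 0.43 (arrays 1 and 2), 0.34 (arrays 1 and 3) and 0.40 (arrays 2 and 3). Each deletion array therefore had a wild-type array that was nearer to it than the other deletion array, which was array 2 for deletion array 1 and array 3 for deletion array 2. Replicate 2 of each of the other 4 deletion strains also had wild-type array 3 as its nearest. Replicate 1 of the tH(GUG)G1 deletion had wild-type array 2 as its nearest, like deletion array 1 here. For replicate 1 of the tM(CAU), tR(CCU)J and tL(GAG)G deletions the nearest was wild-type array 1. The methods set each strain against the wild type of its own batch, but which arrays shared a batch is not given in the sources used here, so no fit could hold a batch term and its part in these differences was not tested. The errors and tests below used the spread within strains pooled over all 13 arrays, of which the pairs of one strain here show only a part.

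**Figure D1:**
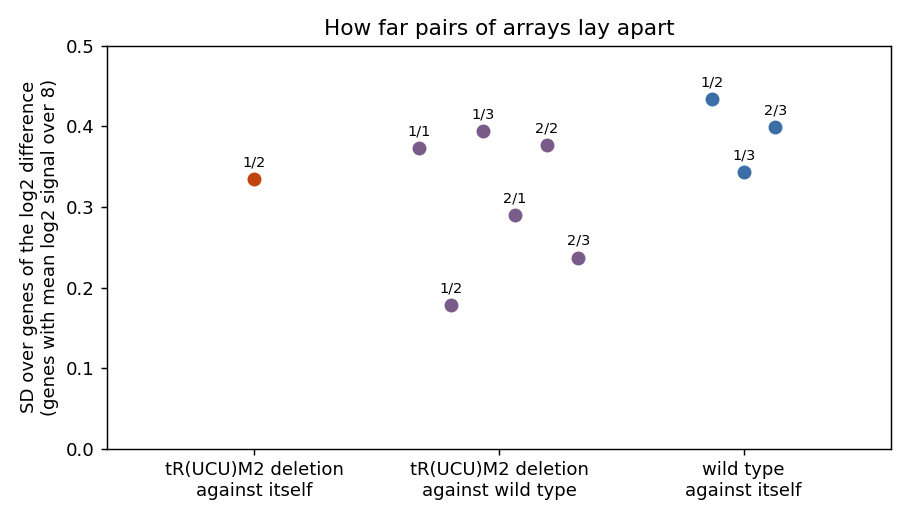
SD over the 3992 brighter genes of the log2 difference between each pair of arrays (y axis), by kind of pair (x axis). The numbers over the points name the arrays, and in the middle column the deletion array comes first. The smallest SD, 0.18, is between tR(UCU)M2 deletion array 1 and wild-type array 2, and the largest, 0.43, between wild-type arrays 1 and 2.

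No gene passed the test between the tR(UCU)M2 deletion and wild type. With limma on all 13 arrays and Benjamini-Hochberg adjustment over 5446 genes, 0 genes were higher and 0 lower at an adjusted p under 0.05 (0% of genes each way). At an unadjusted p under 0.05 there were 72 genes (1.32%), 28 higher (0.514%) and 44 lower (0.808%), where 272 would be counted if no gene differed and p-values were uniform. The smallest adjusted p was 0.314 and belonged to VBA3, and the next was 0.999. The median difference over all genes was -0.03, with 2327 genes (42.7%) at a higher mean and 3119 (57.3%) at a lower mean in the deletion. The share at a higher mean was 57.2% with each array centred on its median and 50.1% with quantile normalization. Both deletion arrays lay above all 3 wild-type arrays for 225 genes (4.13%) and below all 3 for 323 genes (5.93%). The labels call the arrays biological repeats without saying how their cultures were kept apart, so the p-values measure the spread between these arrays.

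What the design could have shown depended on the signal of the gene. For the middle gene the 95% confidence interval reached 0.41 on the log2 scale to each side of the estimate, a factor of 1.32. The whole interval lay inside a 2-fold difference for 4823 genes (88.6%), and inside a 1.5-fold difference for 3297 genes (60.5%). Among the brightest quintile of genes these shares were 97.7% and 83.5%, and among the dimmest quintile 60.6% and 19.9%. A difference over 1 on the log2 scale, taken without regard to its error, was seen for 58 genes, of which 54 lay in the dimmest quintile and 1 among the 3992 brighter genes. By these intervals, which are not adjusted for the number of genes, changes of 2-fold or more were bounded for most genes. Changes of 1.5-fold were not bounded for many. A call asked for more, since a gene called alone would need an unadjusted limma p of 9.18e-06. The intervals therefore do not say that a change of 1.5-fold or 2-fold would have been called. The count for 1.5-fold rested on both deletion arrays, since it was 1850 without deletion array 1 and 1851 without deletion array 2.

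**Figure D2:**
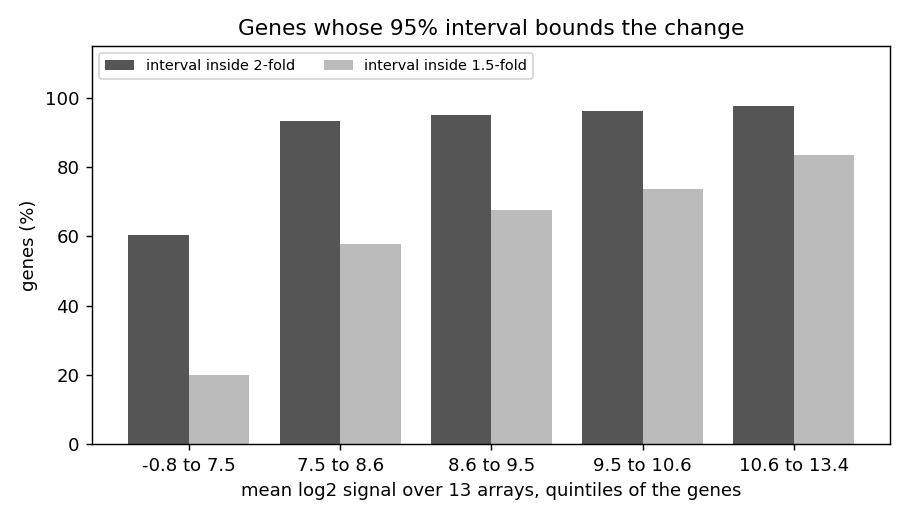
Share of genes (y axis, percent) whose 95% confidence interval of the tR(UCU)M2 deletion minus wild type difference lies inside a 2-fold (dark bars) or a 1.5-fold difference (light bars), for quintiles of the 5446 genes by mean log2 signal over 13 arrays (x axis). The shares are 60.6% and 19.9% in the dimmest quintile and 97.7% and 83.5% in the brightest.

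Gene groups were described by how many members had a higher mean in the tR(UCU)M2 deletion and by the median of their differences, beside 42.7% and -0.03 over all genes. The groups were 46 lists of pathways and complexes, 21 with a positive and 25 with a negative median, between -0.30 and 0.15. None had a member that passed the test. Their position on single arrays was read as the median over members of the log2 signal minus the mean of the 5 arrays, less the same over all genes, and this is called the shift of the list. For 6 of the 46 lists the shifts of the strains did not overlap. The deletion arrays lay above for translation factors, the GCN pathway, aromatic amino acid biosynthesis and pyrimidine synthesis. They lay below for RNA polymerase III transcription factors and amino acid permeases. With only 5 arrays, some lists would separate by the order of the arrays alone. How many of the 46 would do so was not worked out. The lack of overlap therefore does not mark these 6 lists as changed.

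Genes for the cytosolic ribosome had small positive differences whose size depended on the scaling. Of 127 measured genes for cytosolic ribosomal proteins (137 in the list), 125 had a higher mean in the deletion, with a median difference of 0.15. Yet the shift of this list was 0.14 and 0.06 in the tR(UCU)M2 deletion and -0.28, 0.12 and -0.06 in wild type, so the groups overlapped. Only 10 of the 127 genes (7.87%, beside 4.13% of all genes) had both deletion arrays above all wild-type arrays. Both lay below for 0, beside 5.93% of all genes. RPS15, a protein of the small subunit, had log2 signals of 13.64 and 13.51 in the deletion, against 13.20, 13.50 and 13.30 in wild type, a difference of 0.24 (SE 0.14). For RPL4A, of the large subunit, the difference was 0.25 (SE 0.16), and for RPP2B, of the ribosomal stalk, 0.24 (SE 0.16). Set against its own nearest wild-type array, deletion array 1 had a list median of 0.01 and deletion array 2 of 0.09, and 61 of the 127 genes were higher in both pairs. Relative to all genes the list median was 0.18, and it ranged from 0.07 without wild-type array 1 to 0.27 without wild-type array 2. With quantile normalization it was 0.013, with 74 of the 127 genes (58.3%) at a higher mean beside 50.1% of all genes.

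Ribosome biogenesis factors, the nucleolar and cytoplasmic proteins that process ribosomal RNA and assemble the subunits, gave a second group of this kind. Of 152 genes, 137 had a higher mean in the deletion, and the median was 0.12. Both deletion arrays lay above all wild-type arrays for 13 (8.55%, beside 4.13% of all genes) and below for 1 (0.658%, beside 5.93%). The shift was 0.02 and 0.12 in the tR(UCU)M2 deletion and 0.13, -0.14 and -0.14 in wild type. Here wild-type array 1 lay at the level of the higher deletion array and the other wild-type arrays lay below both. DIM1, which methylates small-subunit RNA, had log2 signals of 10.91 and 10.80 in the deletion, against 10.74, 10.61 and 10.44 in wild type (difference 0.26, SE 0.13). The GTPase NUG1 and the assembly factor CIC1 differed by 0.20 (SE 0.11) and 0.23 (SE 0.13), again with no overlap. In both nearest pairs 134 of the 152 genes were higher, with medians of 0.18 and 0.24, where 1462 of all 5446 genes were higher in both pairs and 1884 lower. The same pairs gave lower values in both for 30 of 48 general stress genes, 47 of 70 mitochondrial ribosomal protein genes and 30 of 38 genes of the respiratory chain and ATP synthase. The pairs were picked by likeness, so these counts carry no test. Relative to all genes the biogenesis median was 0.15, and 0.07 without deletion array 2, 0.22 without wild-type array 1 and 0.12 with quantile normalization.

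**Figure D3:**
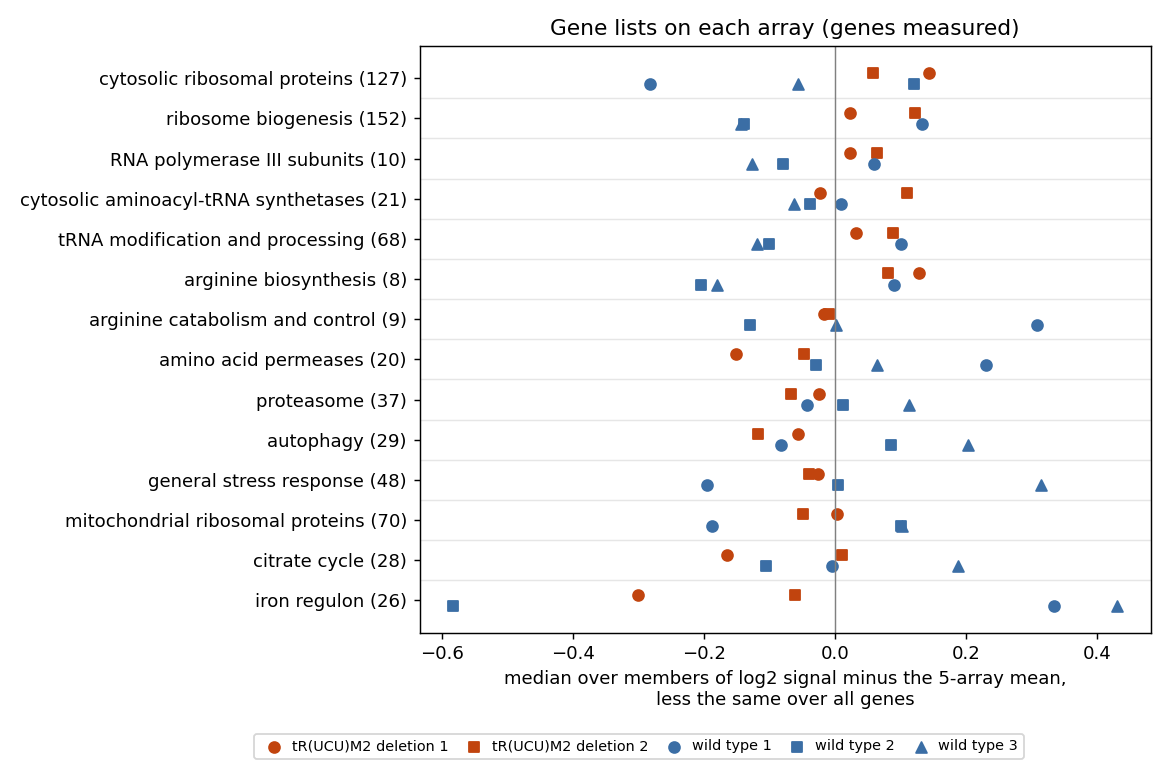
Shift of 14 gene lists on each of the 5 arrays (x axis, log2), with the number of genes measured beside each name. The tR(UCU)M2 deletion arrays are orange and the wild-type arrays blue. For 13 of the 14 lists drawn the strains overlap, and the amino acid permeases are the one of them whose deletion arrays (-0.15 and -0.05) both lie below all wild-type arrays (0.23, -0.03 and 0.06).

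The genes that make, charge and modify tRNAs come next, since the deletion removes one of their substrates or products. Of 10 subunits particular to RNA polymerase III, 9 had a higher mean in the deletion, with a median of 0.08 and a shift of 0.02 and 0.07 in the deletion and 0.06, -0.08 and -0.13 in wild type. RPC34, an initiation subunit, had log2 signals of 10.29 and 10.62 in the deletion, against 10.18, 10.32 and 10.19 in wild type (difference 0.23, SE 0.14), and the groups overlapped. RPC25, of the polymerase stalk, did not overlap and differed by 0.15 (SE 0.13). The 7 subunits particular to RNA polymerase I all had a higher mean (median 0.09), as had 6 of 7 subunits shared between polymerases (median 0.08), among them RPB8 at 0.12 (SE 0.12). Subunits particular to RNA polymerase II had a higher mean in 2 of 7 cases (median -0.04), with a median relative to all genes of -0.02, and 0.05 without wild-type array 2. The list of RNA polymerase III transcription factors, which also held a repressor, had 3 of 11 higher and a median of -0.08. TFIIIC, the factor that binds inside the gene, had 3 of 6 higher and a median of -0.01. TFIIIB, the initiation factor that recruits the polymerase, had 0 of 3 higher (median -0.10), and TFIIIA and the repressor 0 of 2 (median -0.08). BDP1, of TFIIIB, differed by -0.21 (SE 0.12) without overlap. TFC7, of TFIIIC, had the lowest difference of the list, -0.28 (SE 0.14), and its groups overlapped. It was -0.07 without deletion array 2 and -0.49 without deletion array 1. The shift of this list was -0.01 and -0.01 in the deletion and 0.06, 0.03 and 0.04 in wild type, small next to the error of any single gene, and without deletion array 1 its median relative to all genes was 0.0024.

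Among cytosolic aminoacyl-tRNA synthetases, the enzymes that load tRNAs, 19 of 21 had a higher mean in the deletion with a median of 0.05, which was 0.010 with 15 of 21 higher under quantile normalization. YDR341C, the cytosolic arginyl-tRNA synthetase, had log2 signals of 12.59 and 12.67 in the tR(UCU)M2 deletion, against 12.48, 12.51 and 12.42 in wild type. Its groups did not overlap, and the difference was 0.16 (SE 0.10). The 95% interval of this gene, -0.06 to 0.38, did not reach a 1.5-fold rise. Mitochondrial synthetases had a higher mean in 1 of 14 cases, with a median of -0.15, and MST1, the mitochondrial threonyl-tRNA synthetase, differed by -0.28 (SE 0.14). That list rested on deletion array 1, since its median relative to all genes was -0.12 with both deletion arrays and 0.07 without the first. Of 68 genes for tRNA modification and processing, 49 had a higher mean (median 0.06). Both deletion arrays lay above all wild-type arrays for 7 (10.3%) and below for 1 (1.47%), beside 4.13% and 5.93% of all genes. TRM13, a tRNA methyltransferase, had log2 signals of 8.70 and 9.09 in the deletion, against 8.57, 8.30 and 8.62 in wild type, a difference of 0.40 (SE 0.16). PUS4, a tRNA pseudouridine synthase, differed by 0.20 (SE 0.10) and TRM8, a subunit of a tRNA guanine methyltransferase, by 0.16 (SE 0.10). Translation factors had a higher mean in 24 of 39 cases (median 0.06), and in 20 with quantile normalization (median 0.0020), with the elongation factor subunit TEF4 at 0.16 (SE 0.12).

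Genes that make arginine and sense amino acids had small positive median differences. Relative to all genes the medians stayed above 0 with any 1 array left out, between 0.095 and 0.27 for arginine biosynthesis and between 0.05 and 0.09 for the GCN pathway. Of 8 measured arginine biosynthesis genes (10 in the list), 7 had a higher mean in the deletion, with a median of 0.14. The shift was 0.13 and 0.08 in the tR(UCU)M2 deletion and 0.09, -0.20 and -0.18 in wild type. ARG1, argininosuccinate synthetase, had log2 signals of 12.37 and 12.13 in the deletion, against 12.12, 12.18 and 11.77 in wild type (difference 0.23, SE 0.34). ARG7, which makes ornithine, was the only one of the 8 without overlap, at 10.98 and 10.97 in the deletion, against 10.84, 10.71 and 10.76 in wild type (difference 0.20, SE 0.23). ARG8 differed by 0.19 (SE 0.29), ARG4, argininosuccinate lyase, by 0.14 (SE 0.24), ARG2 by 0.07 (SE 0.22) and CPA1, a subunit of carbamoyl phosphate synthetase, by 0.13 (SE 0.32). ARG3, ornithine carbamoyltransferase, differed by -0.09 (SE 0.44) and by 0.26 without wild-type array 1. The signs of ARG2, ARG4 and CPA1 also turned when single arrays were left out, with ARG2 at -0.16 and ARG4 at -0.03 without deletion array 2 and CPA1 at -0.02 without wild-type array 3. The 9 genes of arginine breakdown and its control had a higher mean in 2 cases (median -0.06), and relative to all genes their median was -0.03, and 0.06 without wild-type array 1. CAR2, ornithine transaminase, spanned 5.19 and 5.86 in the deletion and 6.59, 5.29 and 6.55 in wild type (difference -0.62, SE 0.66).

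The GCN pathway, which reads uncharged tRNA, had a higher mean in 5 of 7 genes with a median of 0.06. GCN4 itself had log2 signals of 12.73 and 12.71 in the tR(UCU)M2 deletion, against 12.60, 12.65 and 12.60 in wild type. These groups did not overlap, but the difference was 0.11 (SE 0.11), and GCN4 is controlled mostly in translation, which mRNA arrays do not measure. Purine synthesis had a higher mean in 18 of 21 genes (median 0.08) and pyrimidine synthesis in 10 of 11 (median 0.10). The purine median relative to all genes was 0.11, and -0.03 without deletion array 1.

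Amino acid permeases, the proteasome, autophagy and general stress were among the lists with negative medians. Of 20 amino acid permease genes, 2 had a higher mean, and the median was -0.15. Both deletion arrays lay below all wild-type arrays for 5 (25%, beside 5.93% of all genes) and above for 0. Relative to all genes the median was -0.12, and -0.24 without wild-type array 2. DIP5, the permease for acidic amino acids, had log2 signals of 9.45 and 9.48 in the deletion, against 10.21, 9.96 and 9.86 in wild type, a difference of -0.54 (SE 0.35). AGP2, a plasma membrane regulator of transport, had 5.50 and 5.23 in the deletion, against 5.89, 5.76 and 6.09 in wild type (difference -0.55, SE 0.21). VBA3, a vacuolar permease for basic amino acids, had the smallest p of all genes in this comparison, and it was dim. It was not above background on either tR(UCU)M2 deletion array (2.61 and 3.14) and above it on 2 of 3 wild-type arrays (4.40, 4.0 and 4.69), with an adjusted p of 0.314 (limma).

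The proteasome, the protease that degrades ubiquitinated proteins, had a higher mean in 3 of 37 genes. Both deletion arrays lay below all wild-type arrays for 5 (13.5%, beside 5.93% of all genes) and above for 0. The proteasome median was -0.10. The shift was -0.02 and -0.07 in the tR(UCU)M2 deletion and -0.04, 0.01 and 0.11 in wild type. RPT5, an ATPase of the regulatory particle, had log2 signals of 10.43 and 10.44 in the deletion, against 10.62, 10.59 and 10.65 in wild type (difference -0.18, SE 0.12). RPN12, of the lid, differed by -0.16 (SE 0.10) and RPN4, the transcription factor for proteasome genes, by -0.18 (SE 0.12), both without overlap. Autophagy genes had a higher mean in 7 of 29 cases with a median of -0.16 and a shift of -0.06 and -0.12 in the deletion and -0.08, 0.09 and 0.20 in wild type. The kinase ATG1 had 5.93 and 6.20 in the deletion, against 6.59, 6.44 and 6.74 in wild type (difference -0.53, SE 0.23). ATG9, a membrane protein, differed by -0.50 (SE 0.20) and ATG13, which binds ATG1, by -0.36 (SE 0.16). Leaving out any 1 array kept the medians of both lists below that of all genes, between -0.11 and -0.03 for the proteasome and between -0.18 and -0.09 for autophagy.

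General stress genes had a higher mean in 14 of 48 cases and a median of -0.15, and this value rested on wild-type array 3. The shift was -0.03 and -0.04 in the tR(UCU)M2 deletion and -0.19, 0.00 and 0.32 in wild type, so the deletion arrays lay between the wild-type arrays. Relative to all genes the median was -0.12, and 0.08 without wild-type array 3. TSL1, of the trehalose synthase complex, had log2 signals of 7.57 and 7.29 in the deletion, against 7.63, 7.53 and 7.92 in wild type (difference -0.26, SE 0.15). Mitochondrial ribosomal proteins had a higher mean in 14 of 70 cases with a median of -0.06, which relative to all genes was -0.03, and 0.02 without wild-type array 2. Citrate cycle genes had a higher mean in 5 of 28 cases (median -0.07), with CIT1, citrate synthase, at -0.48 (SE 0.34). The iron regulon had the lowest median, -0.30, with shifts of -0.30 and -0.06 in the tR(UCU)M2 deletion and 0.33, -0.58 and 0.43 in wild type. CCC2, a copper pump needed for iron uptake, had 7.59 and 7.78 in the deletion, against 8.60, 7.58 and 9.36 in wild type. The wild-type arrays of this gene differed from each other by more than the groups did.

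Single genes were taken next, first the 12 in each direction with the smallest p among the brighter genes whose strains did not overlap. Their adjusted p was 0.999 throughout (limma). YGL039W, an aldehyde reductase, had signals of 1021 and 939 in the tR(UCU)M2 deletion, against 708, 672 and 547 in wild type, a log2 difference of 0.62 (SE 0.14, unadjusted p = 0.0016). YML018C, a vacuolar membrane protein, had log2 signals of 10.93 and 11.05 in the deletion, against 10.65, 10.46 and 10.33 in wild type (difference 0.51, SE 0.14). KAR4, a transcription factor of the mating response, had 9.70 and 9.46 in the deletion, against 9.30, 9.25 and 9.04 in wild type (difference 0.38, SE 0.15). The other genes of this set besides TRM13 and PUS4 were YLR363W-A, BIO4, UFO1, CTI6, ACL4, SDO1 and RRP1. Their differences were 0.40 (YLR363W-A), 0.42 (BIO4, biotin synthesis), 0.31 (UFO1, an F-box protein), 0.26 (CTI6), 0.24 (ACL4, a chaperone of a ribosomal protein), 0.24 (SDO1, large-subunit maturation) and 0.22 (RRP1, ribosomal RNA processing).

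On the lower side, PDS1, the securin that holds sister chromatids together until anaphase, had log2 signals of 8.16 and 8.22 in the tR(UCU)M2 deletion, against 8.59, 8.54 and 8.64 in wild type. The difference was -0.40 (SE 0.12, unadjusted p = 0.0085). CLB5, a cyclin of DNA replication, had 8.69 and 8.72 in the deletion, against 9.08, 8.93 and 9.04 in wild type (difference -0.31, SE 0.11). KOG1, a subunit of the TORC1 kinase complex, had 8.61 on both deletion arrays, against 9.08, 8.82 and 9.04 in wild type (difference -0.37, SE 0.14). SIR4, a silencing protein, had 8.60 and 8.66 in the deletion, against 9.31, 8.79 and 9.05 in wild type (difference -0.42, SE 0.17). The other members were KAR3, a kinesin, at -0.39, UBP15, a ubiquitin protease, at -0.40, UTR1, an NAD kinase, at -0.37, HLR1 at -0.37, PER1 at -0.32, HOS3, a histone deacetylase, at -0.31, VPS54, of Golgi retrieval, at -0.29 and NUT1, of the Mediator complex, at -0.27. The whole cell cycle list, to which CLB5 belongs, had a higher mean in 6 of 22 genes and a median of -0.07.

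**Figure D4:**
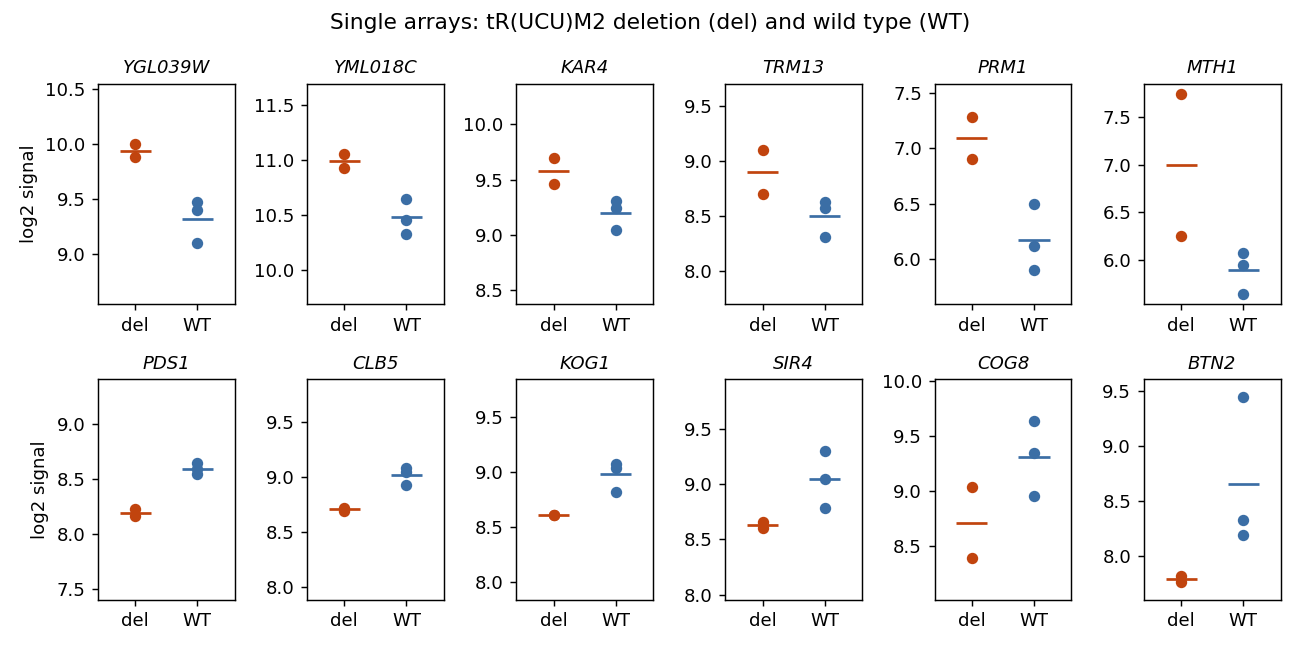
Log2 signal (y axes) of 12 genes on single arrays of the tR(UCU)M2 deletion (del, orange) and wild type (WT, blue), with a bar at each group's mean. The y axes span different ranges. COG8, next to the deleted gene, is the gene of the 12 whose groups overlap, with 8.40 and 9.03 in the deletion and 9.63, 8.95 and 9.35 in wild type.

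The largest differences among genes above background on all 5 arrays without overlap came from dimmer genes, and several rested on 1 array. MTH1, a repressor of hexose transporter genes, had log2 signals of 7.75 and 6.25 in the tR(UCU)M2 deletion, against 5.64, 6.07 and 5.95 in wild type (difference 1.12, SE 0.37). YKR075C had 9.28 and 7.57 in the deletion, against 7.35, 7.42 and 7.33 in wild type (difference 1.06, SE 0.50). For both genes deletion array 1 was far above array 2, which lay just above wild type. Other genes of glucose sensing gave 0.53 (MIG2, a repressor, SE 0.33) and 0.28 (HXT3, a hexose transporter, SE 0.15). The whole list of hexose transporters and sensors had a higher mean in 13 of 21 genes with a median of 0.07, and its lowest value, -2.33, belonged to HXT8, which was below background in both strains. Relative to all genes its median was 0.10, and -0.0056 without deletion array 1 and 0.35 without array 2. PRM1, a membrane protein of mating cell fusion, was more even, at 7.28 and 6.91 in the deletion, against 6.11, 6.50 and 5.90 in wild type (difference 0.93, SE 0.23). YLR157W-E differed by 1.18 (SE 0.37) on its brighter probe set and by -2.08 on a dim one, and YLR156W, which shares its sequence with other copies in the genome, by 0.86 (SE 0.55).

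On the lower side of the same rule, BTN2, which sorts misfolded proteins, had 7.76 and 7.82 in the tR(UCU)M2 deletion, against 8.33, 8.20 and 9.45 in wild type (difference -0.87, SE 0.50), where wild-type array 3 lay far above the other wild-type arrays. GAT4, a GATA-type transcription factor, differed by -0.88 (SE 0.33), ARN2, a siderophore transporter, by -0.67 (SE 0.36), MBR1 by -0.67 (SE 0.35) and MET28, an activator of sulfur assimilation genes, by -0.66 (SE 0.19). COS8, a subtelomeric gene, was not above background on either deletion array (3.59 and 3.12) and above it on 2 of 3 wild-type arrays (4.71, 4.21 and 4.11), with an adjusted p of 0.999 (limma).

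**Figure D5:**
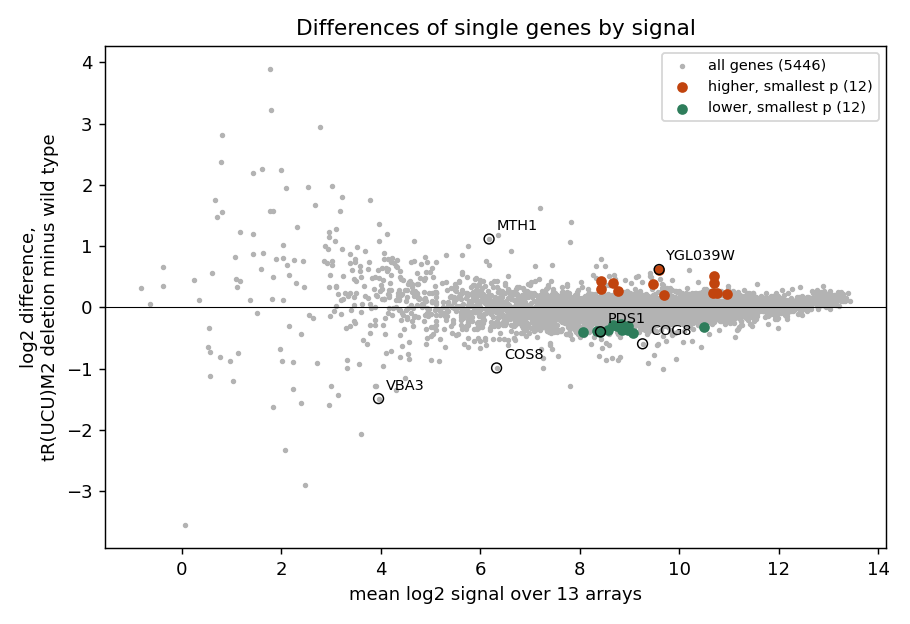
Log2 difference, tR(UCU)M2 deletion minus wild type (y axis), against mean log2 signal over 13 arrays (x axis) for 5446 genes. Orange and green points are the 12 brighter genes in each direction with the smallest p without overlap, and circles mark named genes. Differences over 1 lie almost all at low signal, with 54 of 58 in the dimmest quintile of genes.

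The genes beside the deletion were examined because the cassette replaces the tRNA gene among them. In the order of the RefSeq annotation tR(UCU)M2 lies between COG8 and DAK1 on chromosome XIII. Of the nearest 6 protein-coding genes on each side, 12 in all, 9 had a lower and 3 a higher mean in the tR(UCU)M2 deletion, with a median of -0.11. Over all genes 57.3% had a lower mean, and the median was -0.03. COG8, a subunit of a Golgi tethering complex, had log2 signals of 8.40 and 9.03 in the deletion, against 9.63, 8.95 and 9.35 in wild type. Its difference was -0.60 (SE 0.23, 95% interval -1.11 to -0.08, unadjusted p = 0.0286, adjusted p = 0.999 with limma), and deletion array 2 lay inside the wild-type range. It was the only one of the 12 with an unadjusted p under 0.05 (limma), which 1.32% of all genes had. DAK1, dihydroxyacetone kinase, had 9.96 and 10.75 in the deletion, against 10.69, 10.34 and 11.13 in wild type (difference -0.36, SE 0.32), and 0.03 without deletion array 1. HMG1, an enzyme of sterol synthesis, was the only neighbour with both deletion arrays (10.04 and 9.88) below all wild-type arrays (10.30, 10.10 and 10.11), with a difference of -0.21 (SE 0.14). Both deletion arrays lay below for 5.93% of all genes. The highest of the 12 differences was 0.14, for RPL6A.

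The deletion of tH(GUG)G1, another copy from a family with several members, gave no call against the tR(UCU)M2 deletion. With limma 0 genes were called in either direction (0% each), 46 had an unadjusted p under 0.05, and the median difference, tR(UCU)M2 deletion minus tH(GUG)G1 deletion, was -0.03. The interval lay inside 2-fold for 87.1% of genes. No wild-type array enters either mean here, though all 13 arrays enter the pooled spread. The 12 brighter genes with higher means gave -0.16 to 0.11 here and the 12 with lower means -0.48 to 0.10. YML018C had log2 signals of 10.93 and 11.05 in the tR(UCU)M2 deletion and 11.10 and 10.95 in the tH(GUG)G1 deletion, a difference of -0.03 with a 95% interval of -0.38 to 0.32. PDS1 had 8.16 and 8.22 in the tR(UCU)M2 deletion and 7.95 and 8.23 in the tH(GUG)G1 deletion, a difference of 0.10 (interval -0.20 to 0.40). These intervals still hold differences of the size seen against wild type for many genes, so the strains are not shown to be alike. COG8 had 9.15 and 9.29 in the tH(GUG)G1 deletion, a difference of -0.51 (interval -1.07 to 0.06). DAK1 had 10.28 and 11.22 there, a difference of -0.39 (interval -1.19 to 0.40). An effect of the deletion on the genes beside it was not tested. Of the list medians, cytosolic ribosomal proteins stood at 0.16, ribosome biogenesis at -0.08, arginine biosynthesis at 0.22 and general stress genes at 0.05 in this comparison. These medians were not followed on single arrays or under another scaling. The tH(GUG)G1 deletion arrays lay apart for ARG1 (12.47 and 11.30), ARG8 (11.91 and 10.95) and RPS15 (13.49 and 13.16). ARG2 went the other way (7.99 and 8.51). The medians therefore do not mark these lists as different between the strains.

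Against the arrays labelled tR(CCU)J deletion many genes differed. Of 5446 genes 789 were called (limma, adjusted p under 0.05), 193 higher (3.54%) and 596 lower (10.9%) in the tR(UCU)M2 deletion. The median over all genes was -0.20, so the whole distribution was shifted. With each array centred on its median, 454 were higher and 178 lower, and with quantile normalization 170 were higher and 113 lower. The count also rested on single arrays, since it was 14 without tR(UCU)M2 deletion array 2, 36 without array 1, and 63 and 509 without tR(CCU)J arrays 1 and 2. The stated genotype deletes MF(ALPHA)1, the gene of the alpha pheromone precursor, and on the tR(UCU)M2 deletion arrays its log2 signals of 3.10 and 3.30 were not above background. On the tR(CCU)J arrays it had 12.44 and 12.53. It was at least 361-fold lower in the tR(UCU)M2 deletion (adjusted p = 0.00037, limma). The strain labelled tR(CCU)J thus differed in this gene from the genotype given for the background, and the part that any such difference plays in the values of this comparison was not tested.

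Of the arginine biosynthesis genes 5 of 8 were higher in the tR(UCU)M2 deletion than in the strain labelled tR(CCU)J and 0 lower, with a median of 1.20. ARG3 had log2 signals of 11.05 and 11.34 in the tR(UCU)M2 deletion, against 7.68 and 8.30 in the strain labelled tR(CCU)J, and differed by 3.20 (SE 0.48, adjusted p = 0.011), and ARG1 differed by 2.45 (SE 0.37, adjusted p = 0.011, limma for both). These counts are without centring and stand beside 3.54% higher, 10.9% lower and a median of -0.20 over all genes. Cytosolic ribosomal proteins were higher for 36 of 127 and lower for 0, with a median of 0.56, but the higher count was 90 with each array centred on its median and 1 with quantile normalization (median 0.03). Of the proteasome genes 12 of 37 were lower and 0 higher (median -0.40), and 2 were lower with centring and 17 with quantile normalization. Of the general stress genes 16 of 48 were lower and 1 higher (median -0.87), and 10 were lower with centring and 6 with quantile normalization. For arginine biosynthesis 5 of 8 were higher under both. TSL1 was lower by a difference of -2.17 (SE 0.17, adjusted p = 0.00037) and COS8 at least 24.8-fold lower (adjusted p = 0.00037, limma for both). TIR1, a cell wall mannoprotein, was higher by 2.50 (SE 0.23, adjusted p = 0.0014, limma). Both strains have lost an arginine tRNA gene, and the same genes in the tR(UCU)M2 deletion minus wild type comparison stood at -0.09 (ARG3), 0.23 (ARG1), -0.26 (TSL1) and 0.27 (TIR1), with no call.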

How the data were processed

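RNA from 13 samples of 6 strains was hybridized to Affymetrix Yeast Genome 2.0 arrays after priming with poly(T). The values used are the intensities that the authors deposited, on a linear scale. The methods name background correction and quantile normalization, and the submitters' processing notes name GCRMA, with no version. The 2%-trimmed mean was 500.2 to 500.3 on every array while quantiles differed, so the deposited intensities do not look quantile normalized. The table names no genome build, and no coordinates are given.

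Intensities were taken to log2 without an offset. Of 10928 probe sets, 7244 had 1 gene symbol, 1 had several and 3683 had none, and 5495 gave 5446 protein-coding genes, the brightest probe set standing for each of 47 genes with several. Gene names came from the platform table and RefSeq. The 95th percentile of S. pombe probe sets set the background. Strains were compared with limma 3.58.1 in R 4.3.3, with one mean per strain over all 13 arrays (7 residual and 2.67 prior degrees of freedom), two-sided, and Benjamini-Hochberg adjustment at 0.05. A bound for a gene not above background in one group takes the background of each array as its floor. The script was tested on simulated data first. The number of arrays limits the precision.

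Members, gene lists and the comparisons were chosen with earlier results of these data known. Named genes were the 12 smallest p in each direction among brighter genes without overlap, the 5 largest differences above background without overlap, up to 4 of each list, the neighbours, the arginine and RNA polymerase III genes, the genotype's genes and genes the study measured singly. Which of them are described was chosen after their values were seen. Neighbours were taken as 6 genes to each side because distances need a build, and the neighbours of tL(CAA)L3 and the codon content of genes were not analysed here. Alternatives were another normalization, an offset of 16 before log2, other prior settings, other rules for probe sets, low-signal filters, a fit to the compared arrays alone, a replicate block and leaving out each array.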

Additional observations from a re-analysis of the deposited data

Results flagged for a closer look

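The tR(UCU)M2 deletion was set against the strain labelled tR(CCU)J, which lost the only gene of another arginine tRNA family, and 789 genes differed by a test of the difference itself (limma, adjusted p under 0.05). The genes named here are the 5 in each direction with the smallest p in that comparison, with differences as tR(UCU)M2 deletion minus tR(CCU)J. TIR1 was higher by 2.50, the uncharacterized YNL035C by 1.07, RKI1, of the pentose phosphate pathway, by 0.93 and PUS4 by 0.80 on the log2 scale. HXT13, a hexose transporter, was above background on 1 of 2 tR(UCU)M2 deletion arrays and on neither tR(CCU)J array. Its mean over both tR(UCU)M2 deletion arrays was 1.02 times the background of the tR(CCU)J arrays, a ratio that counts the dim array at its own signal and so measures no level of HXT13. TSL1 differed by -2.17, PAU7, a subtelomeric gene, by -1.44 and YDR239C by -1.84. COS8 was at least 24.8-fold lower and MF(ALPHA)1 at least 361-fold lower in the tR(UCU)M2 deletion, both below its background there, and MF(ALPHA)1 is a gene that the genotype stated for the background deletes.

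Groups of 2 and 3 arrays were too small to look for single arrays far from the rest of their group by a gap test.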

How the results depend on the processing

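Against wild type, 0 genes were called under every alternative tried except a fit to the compared arrays alone, which called 1 gene, HXT8 (named after its values were seen). HXT8 was below background in both strains, and leaving out each array gave 0 throughout. The labels do not say what a replicate number shares. The block gave 0 calls against wild type (117 genes at an unadjusted p under 0.05), 0 against tH(GUG)G1 and 723 against tR(CCU)J. Only wild type has an array 3, so for differences from wild type the block equals leaving that array out. General stress genes then had a median relative to all genes of 0.08. Same-numbered tR(UCU)M2 deletion and wild-type arrays deviated oppositely (r = -0.27 and -0.74). Against wild type, tH(GUG)G1 gave r = -0.06 and -0.56, and tM(CAU), tR(CCU)J and tL(GAG)G gave 0.05 to 0.54. Same-numbered arrays of 2 deletion strains gave r = 0.12 to 0.67 over the 10 strain pairs, with 2 arrays each. Under the block CPA1 was at -0.021. Of 1713 values of named genes against wild type, 1702 kept their sign, but many of these values were fixed in advance. Leaving out an array of another strain, changing the prior or fitting the compared arrays alone cannot move a difference of means. Many of the genes were also chosen by these same values, so the count measures no stability. YLR157W-E was -0.45 with the mean of its probe sets. Against the nearest wild-type arrays, which for means equals leaving out wild-type array 1, ARG3 was 0.26. Leaving out 1 array gave -0.29 to 0.26 for ARG3, -0.033 to 0.32 for ARG4, -0.16 to 0.31 for ARG2, -0.021 to 0.39 for CPA1 and -0.76 to 0.029 for DAK1. The neighbours' median relative to all genes, -0.08, ranged from -0.11 to 0.038 with 1 array left out. With 1 array left out, intervals inside 1.5-fold ranged from 1850 to 3393 genes and inside 2-fold from 4218 to 4869. The offset of 16 gave 3775 genes inside 1.5-fold and 5170 inside 2-fold. The fit to the compared arrays alone gave 2743 and 4785. With quantile normalization the ribosomal protein median relative to all genes was 0.013, against 0.18. Of 1122 list medians under alternatives 67 moved by more than the spread between replicates. The settings that cannot move a difference of means are counted among the 1122.

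Against tR(CCU)J, 789 calls became 283 with quantile normalization (170 higher, 113 lower) and 10 in a fit to the compared arrays alone (4 higher, 6 lower), and leaving out 1 array gave 14 to 902. It was 14 without tR(UCU)M2 deletion array 2, 36 without array 1, 63 and 509 without tR(CCU)J arrays 1 and 2, 335 without either tM(CAU) array and 377 without either tL(GAG)G array. The cause was not tested. Against tH(GUG)G1, 0 calls became 1 in the fit to the compared arrays alone (FRE5, below background in both strains) and 0 to 1 with 1 array left out (BUD25, without tH(GUG)G1 array 2), both genes named after their values were seen. Where 1 array was left in a group, it was assumed to vary like the others. Low signal limits what can be said of the dimmest quintile of genes.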

Other observations

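A further 3683 probe sets had no gene name in the platform table. Of these, 313 lay above background on all arrays. Between the tR(UCU)M2 deletion and wild type limma called 0 of the 3683 in either direction, 218 had an unadjusted p under 0.05, and the smallest adjusted p was 0.321.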
